A study of Mus musculus with 3 samples.

Results

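The 8 genes described here encode transcription factors that are best known from resting and naive T cells. They are Tcf7, Lef1, Satb1, Bach2, Tox, Tox2, Bcl11b and Zeb1, taken by name as 8 of the 55536 mouse genes measured, with symbols read from the transcript identifiers. The libraries were made from polyadenylated RNA of activated regulatory T cells, a class of CD4 T cells that depends on the factor Foxp3 and restrains immune responses. The donor was male, 4 months old, and carried Foxp3CreERT2 x Rosa26YFP, which places an inducible Cre recombinase at the Foxp3 gene and a yellow fluorescent reporter at Rosa26. The labels describe 1 biological replicate with technical replicates 1, 2 and 3 and sheared fragments of 100 to 300 bp. Every library carries both alleles and none is a control, so the data hold levels and the spread between libraries, and no contrast between conditions. How the cells were sorted, and any agent used to activate them or to induce Cre, was not stated in the labels used here.

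TCF-1, the product of Tcf7, and LEF-1 are paralogous HMG-box proteins that bind the same DNA motif. Their long forms begin with a domain that binds beta-catenin, and shorter forms from internal promoters lack it. Tox and Tox2 are HMG-box proteins of another family, with known roles in CD4 lineage development and in persistently stimulated or follicular helper T cells. Satb1 organises chromatin loops in thymocytes, and its loss is known to disturb regulatory T cell development. Bcl11b and Zeb1 are zinc finger proteins that recruit corepressors, and Bcl11b maintains T cell identity. Bach2 is a bZIP repressor that binds with small Maf proteins and is known to restrain effector programmes.

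The libraries held 10981924, 9700630 and 6667391 expected counts over mouse genes in replicates 1, 2 and 3. Their median fragment lengths were 179.8, 172.3 and 165.9 bases, in the same order. All 7 T cell markers and all 5 regulatory T cell markers were detected, that is, reached 1 TPM (transcripts scaled to a fixed sum per library, corrected for length) in every library. Summed over its list, the T cell level was 11900, 11340 and 7840 TPM in replicates 1, 2 and 3, and the regulatory T cell level was 1481, 1579 and 1534 TPM. Foxp3 itself stood at 29.5, 28.7 and 49.8 TPM. Of the other lists, 5 of 8 B cell markers, 3 of 4 plasma cell markers, 2 of 4 erythroid markers and none of 5 immature thymocyte markers were detected. Also detected were 1 of 2 CD8 T cell markers and 2 of 5 myeloid markers, but none of 3 NK or innate lymphoid markers. The CD8 T cell marker Cd8b1 stood at 14.05, 13.8 and 12.3 TPM, and Cd8a at 2.13, 1.17 and 0.66 TPM. The summed plasma cell level was 879, 292 and 2570 TPM, the erythroid level 714, 5.30 and 21.5 TPM and the B cell level 114, 79.2 and 95.4 TPM. Rag1 and Rag2, which define immature thymocytes, were at 0 in every library.

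Tcf7 and Lef1 are shown first by their coding starts, because their long and short proteins differ there. Coordinates and reading frames are on GRCm38 (mm10) with GENCODE M21 models, and the first 60 coding bases follow with the start codon in capitals. The Lef1 starts are on the plus strand of chromosome 3, at 131111472 for the long Lef1-201 of 397 codons and at 131112812 for the short Lef1-203 of 331 codons.
Lef1-201: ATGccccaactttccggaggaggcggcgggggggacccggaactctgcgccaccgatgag
Lef1-203: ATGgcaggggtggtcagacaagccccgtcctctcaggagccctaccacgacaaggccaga
The forms join in the same frame at base 131113856, where 69 codons of Lef1-201 and 3 codons of Lef1-203 precede the common sequence. The 24 bases on each side of that join follow, with the common part in capitals.
Lef1-201 join: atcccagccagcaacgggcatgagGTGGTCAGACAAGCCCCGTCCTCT
Lef1-203 join: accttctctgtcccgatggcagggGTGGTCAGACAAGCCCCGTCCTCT
The short start lies 1340 bases downstream of the long one, inside the first intron of the long models.

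The Tcf7 starts are on the minus strand of chromosome 11. Both M21 transcripts of Tcf7, Tcf7-201 and Tcf7-202, start at 52282217 and read the same 303 codons. The RefSeq window around the Tcf7 start site, on GRCm38.p6, holds a further ATG at 52283179, which is 165 bases before the first base of Tcf7-202. Joined to Tcf7-202, that ATG opens a frame of 419 codons, 116 more than the annotated one, to the same stop codon.
Upstream Tcf7 frame: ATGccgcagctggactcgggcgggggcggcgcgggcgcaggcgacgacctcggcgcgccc
Tcf7-201 and Tcf7-202: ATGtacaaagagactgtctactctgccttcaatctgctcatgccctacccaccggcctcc
No M21 model contains the upstream start, so the tables measure no long Tcf7 form, and their Tcf7 shares are not shares of long and short protein.

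Most Lef1 signal was assigned to the short form. Lef1-203 took 82.28%, 80.07% and 80.56% of the Lef1 TPM in replicates 1, 2 and 3, a mean of 80.97% ± 1.16 (SD, n = 3). Its level was 117, 137 and 133 TPM, against 9.67, 13.8 and 15.9 TPM for the long forms together. The ranges of the short and long forms did not overlap, and the short form made up 90.85% ± 1.53 (SD, n = 3) of the TPM of complete coding Lef1 transcripts. In the second quantification, which was computed straight from the reads, that share was 89.6% ± 1.03 (SD, n = 3).

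Among the long forms, Lef1-201 of 397 codons held 2.28%, 4.71% and 7.13%, and Lef1-204 of 384 codons held 4.51%, 3.35% and 2.51%. Lef1-202 of 369 codons was listed at 0 in every library. The split between Lef1-201 and Lef1-204 was poorly fixed: the 96.2 counts given to Lef1-201 in replicate 1 carried a deposited posterior SD of 55.4. Lef1-203 in the same library had 2224 counts with a posterior SD of 22.6.

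The evidence for the split between short and long forms lies mainly in their first exons. Lef1-201 and Lef1-203 share 2274 bases, and Lef1-203 has 24 bases of its own relative to the long forms, all of which also lie in noncoding Lef1 models. The long forms have 1208 bases of their own, of which 1001 are 5′ untranslated. All 1208 lie under exons of the antisense gene Gm43352, which held 32, 8 and 27 counts. Whether counting used strand was not stated in the labels or headers, so reads of Gm43352 and of the long first exon cannot be told apart.

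A downstream start that took most of the signal was not rare in these libraries. Of 1195 genes with a mean of at least 10 TPM and complete coding transcripts from several starts to 1 stop, the downstream starts took a median of 34.98% of the TPM. The same measure, which leaves out Lef1-204, was 94.38% for Lef1. That value was reached or exceeded in 17.32% of these genes. This description was added after the Lef1 values had been seen.

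**Figure D1:**
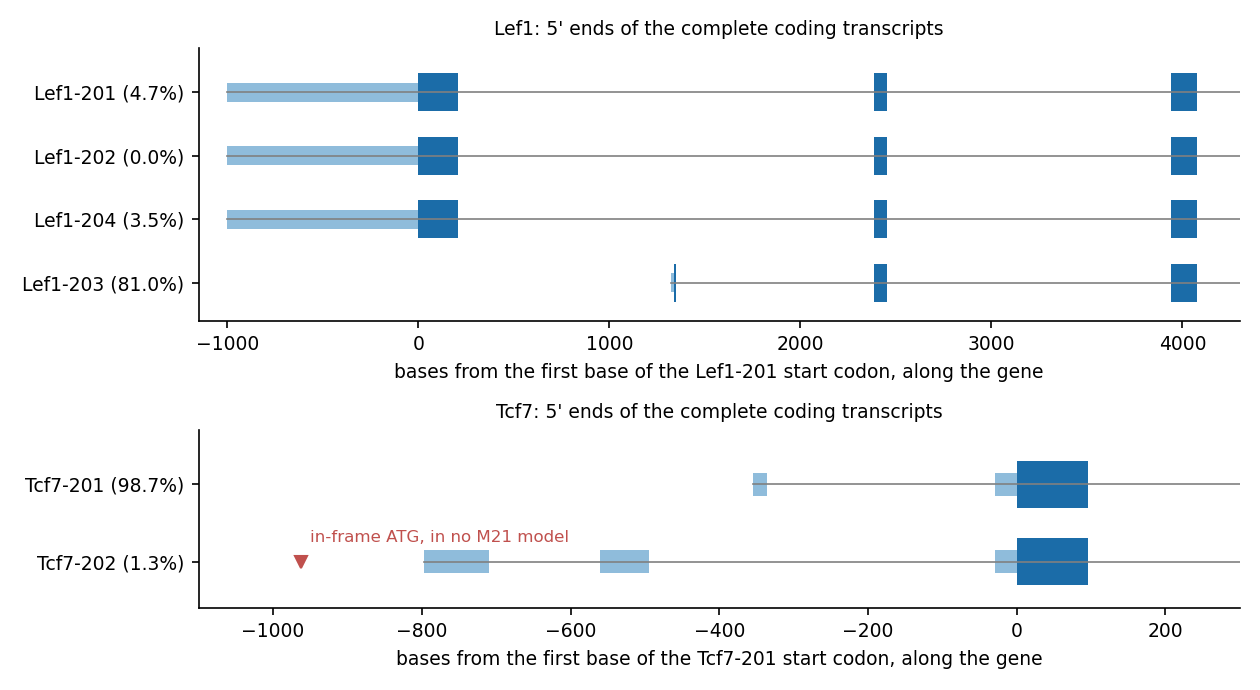
First exons of the complete coding transcripts of Lef1 (top) and Tcf7 (bottom), drawn to scale as bases from the first base of the Lef1-201 or Tcf7-201 start codon (x axis). Dark blocks are coding exons, pale blocks untranslated exons, lines introns, and percentages the mean share of the gene's TPM over 3 libraries. The Lef1-203 first exon sits in the first long-form intron, and the red mark is the in-frame Tcf7 ATG outside every M21 model.

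Tcf7-201 held 99.11%, 98.23% and 98.73% of the Tcf7 TPM and Tcf7-202 the remainder, 1.31% ± 0.44 (SD, n = 3). The models differ at both ends. Tcf7-202 has 154 bases upstream that Tcf7-201 lacks, and Tcf7-201 has 883 bases of its own, 865 of them beyond the 3′ end of Tcf7-202. Reads over the Tcf7-201 3′ end therefore enter the share together with reads over the 5′ exons, and the 5′ part alone cannot be read from it. The 30.7 counts given to Tcf7-202 in replicate 1 carried a posterior SD of 9.80.

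By level, Tcf7 and Lef1 led the 8 factors. Tcf7 (ENSMUSG00000000782.15, chromosome 11, 52252371 to 52283014, minus strand) stood at 247.2, 219.6 and 167.0 TPM in replicates 1, 2 and 3, a mean of 211.3 ± 40.8 TPM (SD, n = 3). Replicate 1 was high and replicate 3 low. Each value lay above its deposited credibility bounds, whose upper limits were 212.4, 183.9 and 134.6 TPM. Lef1 (ENSMUSG00000027985.14, chromosome 3, 131110471 to 131224356, plus strand) stood at 142.5, 170.7 and 165.0 TPM, a mean of 159.4 ± 14.9 (SD, n = 3). The Tcf7 and Lef1 ranges overlapped at replicate 3 of Tcf7. Within each library of the main table Tcf7 was the higher, though only by 167.0 against 165.0 TPM in replicate 3. Lef1 was the higher in replicate 3 in the second quantification, at 101.0 against 98.1 TPM. The same held in gene counts on the older M4 annotation divided by coding bases, at 207.8 against 190.9 TPM. By mean TPM, Tcf7 exceeded 94.17% and Lef1 91.86% of the 9988 detected protein-coding genes.

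Of the TOX family, Tox (ENSMUSG00000041272.11, chromosome 4, 6686353 to 6991557, minus strand) was the higher, at 116.2, 121.6 and 88.7 TPM and a mean of 108.8 ± 17.6 (SD, n = 3). Tox2 (ENSMUSG00000074607.11, chromosome 2, 163203125 to 163324170, plus strand) was the lowest of the 8, at 9.25, 6.89 and 10.1 TPM and a mean of 8.76 ± 1.68 (SD, n = 3). Even the highest Tox2 library lay far below the lowest Tox library. The place of Tox depended on the table. In the gene counts on the older M4 annotation Tox had 4219, 3415 and 2125 counts, more than the 3519, 2872 and 1671 of the main table. Divided by coding bases, its mean there was 224.9 TPM, above Lef1 at 189.5 TPM, but the ranges overlapped. What the M4 counts cover was not stated in the labels or headers.

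Satb1 (ENSMUSG00000023927.15, chromosome 17, 51736187 to 51833290, minus strand) stood at 32.2, 35.9 and 72.6 TPM, a mean of 46.9 ± 22.4 (SD, n = 3). Replicates 1 and 2 lay close together and replicate 3 stood apart, which gave Satb1 the largest spread of the 8, with a coefficient of variation of 47.7%. The next largest was 19.3%, for Tcf7.

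The zinc finger genes were intermediate. Bcl11b (ENSMUSG00000048251.15, chromosome 12, 107910403 to 108003602, minus strand) stood at 28.3, 25.2 and 20.02 TPM, a mean of 24.5 ± 4.20 (SD, n = 3). Zeb1 (ENSMUSG00000024238.15, chromosome 18, 5591860 to 5775467, plus strand) stood at 35.3, 40.6 and 32.8 TPM, a mean of 36.2 ± 4.00 (SD, n = 3). By gene TPM, all Zeb1 libraries were above all Bcl11b libraries. For the main complete coding model of each the order was reversed. Zeb1-201 stood at 8.86, 10.7 and 9.0 TPM and Bcl11b-201 at 27.8, 25.1 and 20.02 TPM. Bach2 (ENSMUSG00000040270.16, chromosome 4, 32238804 to 32586108, plus strand) was low and even, at 9.28, 10.1 and 11.5 TPM and a mean of 10.3 ± 1.10 (SD, n = 3). Its range overlapped that of Tox2.

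The order by mean TPM was thus Tcf7, Lef1, Tox, Satb1, Zeb1, Bcl11b, Bach2 and Tox2. Neighbours overlapped in 3 places, between Tcf7 and Lef1, between Satb1 and Zeb1, and between Bach2 and Tox2. By main TPM, Tcf7 was above Lef1 and Bach2 above Tox2 within each library. For Bach2 and Tox2 the nearest values were 9.28 against 9.25 TPM, in replicate 1. In the second quantification and the M4 counts per coding base Lef1 was above Tcf7 in replicate 3. By main TPM Zeb1 was above Satb1 in replicates 1 and 2, so their order by mean rested on replicate 3 there. In the other quantifications all Satb1 libraries were above all Zeb1 libraries. The nearest values were 30.8 against 26.0 TPM in the second and 29.0 against 28.0 in the M4 counts per coding base. The second quantification gave the same order by mean at lower values, with Tcf7 at 115.9 and Tox2 at 4.44 TPM. The median ratio of the main to the second TPM over 9606 genes was 1.71, and the members' ratios ran from 1.09 for Satb1 and 1.12 for Bach2 to 1.97 for Tox2. All 8 members reached 1 TPM and also 5 TPM in every library, as did 45.34% and 35.78% of the 22028 protein-coding genes. The members' median log2(TPM + 1) was 5.35 ± 0.27 (SD, n = 3), beside 4.42 ± 0.07 for the detected protein-coding genes. In the second quantification these medians were 4.95 and 3.78, and in the M4 counts per coding base 5.05 and 4.68, a smaller gap. In bulk RNA a level cannot separate the number of cells that express a gene from the RNA per cell.

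Most members were well above their closest relatives. Of the other genes of the TCF/LEF family, Tcf7l2 stood at 1.23, 3.09 and 3.86 TPM and Tcf7l1 at 0.310, 0.760 and 0.830 TPM. Bcl11a reached at most 0.750 TPM and Zeb2 1.23 TPM, below the lowest library of Bcl11b and of Zeb1. Bach1, which shares the DNA motif of Bach2, stood at 1.81, 2.06 and 2.51 TPM, below every Bach2 library. The TOX family was the exception. Tox4, a broadly expressed member, stood at 60.4, 82.8 and 67.5 TPM, above Tox2 and below Tox in every library, while Tox3 reached at most 0.0400 TPM.

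**Figure D2:**
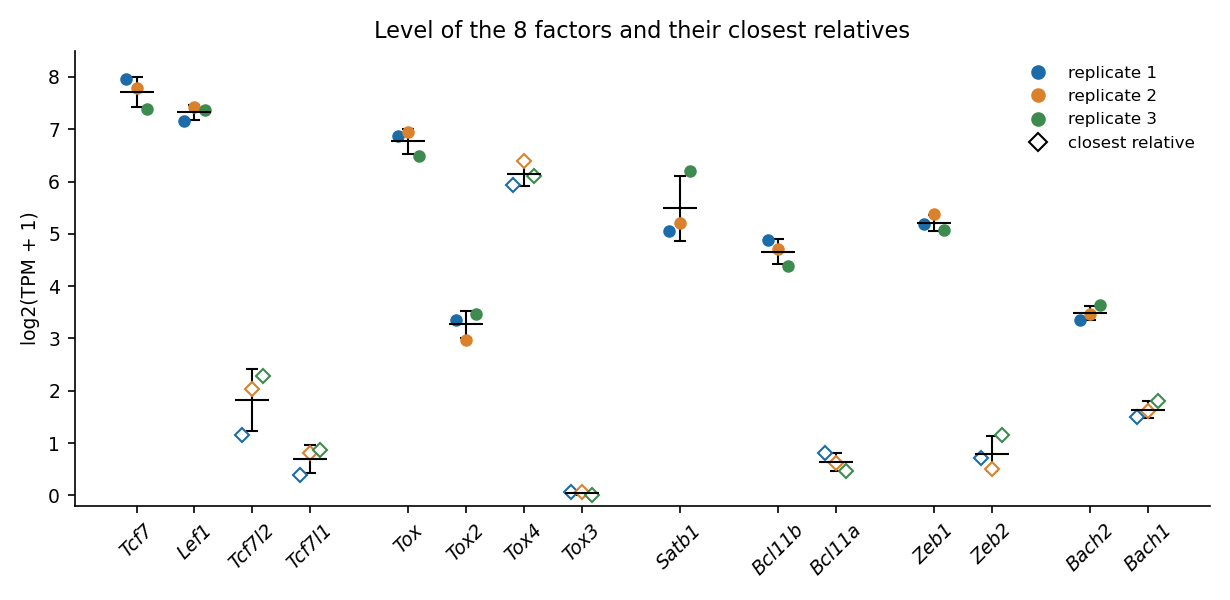
Level of the 8 factors (filled circles) and of their closest relatives (open diamonds) as log2(TPM + 1) on the y axis, grouped by family on the x axis. Points are the 3 libraries, and the horizontal line and bar are the mean and SD. Tcf7 and Lef1 are highest, and Tox4 is the only relative plotted in the range of the factors' levels.

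The libraries were compared with each other next. They are labelled technical replicates, so p-values here measure only the spread between these libraries. The common dispersion estimated with edgeR corresponded to a coefficient of variation of 26.5% between libraries over all tested genes. Against sampling noise alone, 6 of the 8 members varied at an adjusted p below 0.05 (chi-square test on counts scaled by TMM, a trimmed mean of ratios). The background was 65.4% of the 12997 genes tested, so this share was not particular to the factors. Zeb1, with an adjusted p of 0.103, and Bach2, with 0.25, did not pass. With the trended dispersion of edgeR added to the variance, 0 of the 8 members passed, against 1.08% of all genes tested. That dispersion was estimated from the spread of the same 3 libraries, so genes of typical spread were unlikely to pass. Not passing therefore does not show that a gene was even, here or in later counts under that dispersion. Satb1 was the only member with an unadjusted p below 0.05 in that model, at 0.00854 unadjusted and 0.387 adjusted. Of the 6 closest relatives with enough counts to be tested, 2, Tox4 and Tcf7l2, varied against sampling noise, and with the trended dispersion of edgeR 0 did so, adjusted or unadjusted.

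On TMM-scaled counts (CPM, relative to library size), Satb1 stood at 100.6, 100.4 and 203.2 in replicates 1, 2 and 3. Replicate 3 was 2.02-fold above the lowest library, with an exact 95% binomial interval of 1.86 to 2.20 that covers counting error only. Replicate 3 was the highest under all 12 combinations of table and scaling, and without it the Satb1 call was lost, at an adjusted p of 0.888 in the chi-square test.

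Tcf7 moved the other way, at 473.3, 383.7 and 300.8 CPM, a 1.57-fold range with an interval of 1.495 to 1.657. Tox stood at 329.2, 298.8 and 241.7 CPM, a 1.36-fold range. Both were lowest in replicate 3 under all 12 combinations. Bcl11b stood at 186.0, 152.6 and 124.8 CPM, a 1.49-fold range, but its order did not hold in the M4 counts, where 523, 373 and 330 counts gave 47.9, 37.6 and 46.4 CPM and replicate 2 was lowest.

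The remaining members stayed within narrower or less settled ranges. Lef1 stood at 247.9, 278.3 and 283.0 CPM and was lowest in replicate 1 under all 12 combinations, with a range of 1.14-fold. Its call was lost without replicate 1, at an adjusted p of 0.671 in the chi-square test, and in the second quantification, at 0.0884. Tox2 stood at 15.9, 11.5 and 15.6 CPM, a 1.39-fold range with an interval of 1.09 to 1.78 from 108 to 170 counts, and its call was lost without replicate 2, at an adjusted p of 0.915 in the chi-square test, and in the M4 counts, at 0.399. Bach2 and Zeb1 ranged over 1.16-fold and 1.14-fold. Zeb1 passed without replicate 1, at an adjusted p of 0.0443 in the chi-square test, and both passed in the M4 counts.

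Other values moved with replicate 3. Replicate 3 held the fewest counts, at 6667391, and had the shortest median fragment length, at 165.9 bases. The summed T cell marker level was lowest there, as were Tcf7 and Tox, and all 7 T cell markers varied against sampling noise, where 65.4% of all genes did. With the trended dispersion of edgeR 0 of the 7 passed, and 1 had an unadjusted p below 0.05. The summed plasma cell level was highest there, as was Satb1. With the trended dispersion 3 of the 4 plasma cell markers passed, against 1.08% of all genes tested. So did 3 of the 4 erythroid markers, whose summed level was highest in replicate 1. The part of the cell type markers, of depth and of fragment length in these differences was not tested.

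Counts were also available for genes annotated inside Satb1. M21 places 5 same-strand genes inside the Satb1 span, all of the unvetted class TEC (to be experimentally tested), and 4 of them share no exon base with Satb1, while Gm36931 shares 156. The largest, C230085N15Rik, held 1219, 1314 and 1700 counts and stood at 114.0, 136.7 and 245.9 CPM. The next, 5830444F18Rik, stood at 40.6, 47.0 and 107.2 CPM. All 5 were highest in replicate 3 and lowest in replicate 1, and each passed the chi-square test, as did 65.4% of all genes tested. With the trended dispersion of edgeR none passed after adjustment, where 1.08% of all genes tested did. Before adjustment 4 of the 5 had a p below 0.05 in that model. The share of all genes with such an unadjusted p was not computed, so that count has no background.

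Together these 5 genes held 2053, 2215 and 3142 counts, which is 1.91, 2.29 and 2.24 counts for each Satb1 count. Their summed CPM in replicate 3 was 2.37-fold that of replicate 1 and 1.97-fold that of replicate 2. Unspliced Satb1 RNA and separate transcripts would give the same counts here and cannot be told apart. Lef1 has a similar inner gene, Gm42449, which stood at 36.3, 38.8 and 39.3 CPM, with an adjusted p of 0.57 in the chi-square test. For Lef1 that was 0.139 to 0.146 counts for each Lef1 count. These genes were looked at after the Satb1 values had been seen.

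**Figure D3:**
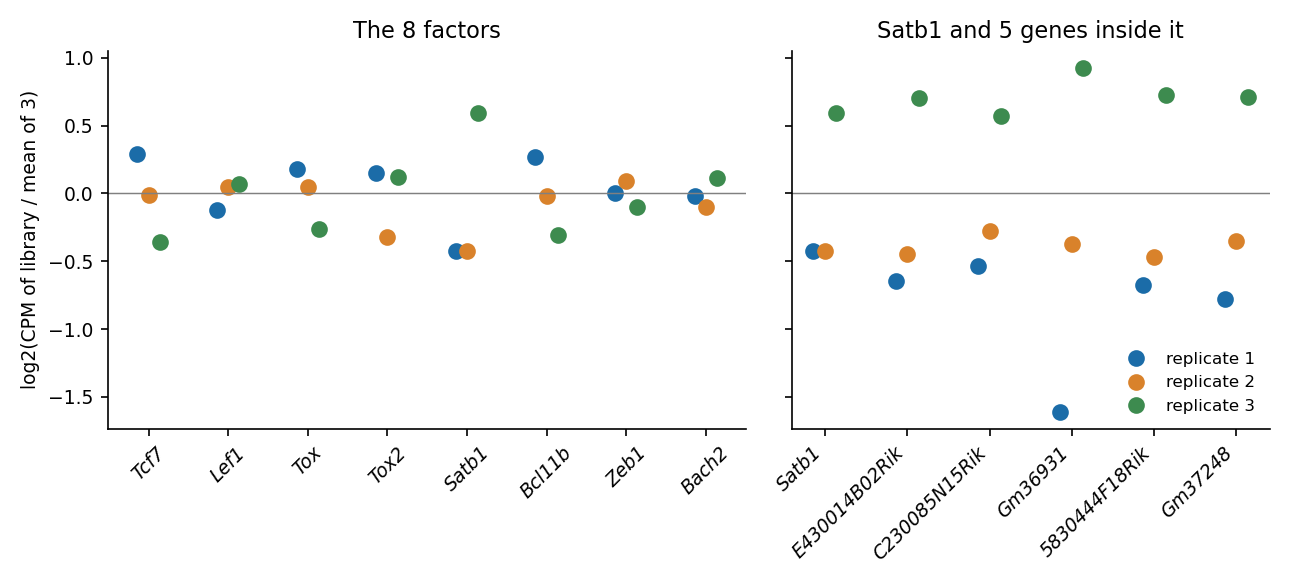
Log2 ratio of each library's TMM-scaled CPM to the mean of the 3 libraries (y axis) for the 8 factors (left) and for Satb1 with the 5 same-strand genes inside it (right). Points are replicates 1, 2 and 3. Replicate 3 is the highest point for Satb1 and for all 5 inner genes, and the lowest for Tcf7, Tox, Zeb1 and Bcl11b, the last of which was lowest in replicate 2 in the M4 counts.

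The annotated class of the transcripts differed among the members. M21 annotates only complete coding models for Tcf7 and Bcl11b, so their share of that class is fixed at 100%. Bcl11b-201 of 884 codons held 98.2%, 99.64% and 100.0% of its gene, and Bcl11b-203, which lacks 72 codons, held 0.72% ± 0.95 (SD, n = 3). Tox-201, the single complete coding Tox model with 526 codons, held 77.75% ± 4.88 (SD, n = 3), and the retained-intron model Tox-203 held 14.9% ± 2.64. The processed transcript Tox-202 held 1.90% ± 2.51 in the main table and 10.6% ± 1.06 in the second. For Tox2, Tox2-202 of 505 codons held 69.7% ± 4.54 and the incomplete Tox2-204 held 30.3% ± 4.54, the latter from 10.6, 5.58 and 8.31 counts.

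For Satb1 the split between complete and incomplete coding models depended on the quantification. Complete coding models held a mean of 59.3% in the main table and 39.6% in the second, and incomplete ones 14.3% and 43.7%. The 764-codon protein, read from 6 models, held 53.79% ± 2.23 (SD, n = 3) in the main table and 32.43% ± 5.05 in the second. The incomplete model Satb1-210 held 0.65% in the main and 33.05%, 31.22% and 25.8% in the second. Its start codon is that of the 764-codon form. Satb1-207 of 795 codons, which carries 32 codons that the 764-codon form lacks, held 5.52% ± 1.14. Among single models, Satb1-204 held 27.0% ± 5.11, Satb1-213 24.2% ± 2.85, Satb1-202 13.7% ± 2.32 and the retained-intron Satb1-209 16.2% ± 1.85.

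Bach2 signal was spread over several models. The 839-codon protein held 37.75% ± 4.35 (SD, n = 3) of the TPM and the 716-codon Bach2-201, whose frame lacks 123 of those codons, held 23.9% ± 9.79. In the second quantification Bach2-201 held 9.85% ± 6.01 and the noncoding Bach2-204 23.8% ± 8.16. Between the models of the 839-codon protein, Bach2-207 held 30.7% ± 9.23, and Bach2-202 held 21.05% in replicate 1 and 0 in the others. The processed transcripts Bach2-206, Bach2-204 and Bach2-205 rested on few reads. Bach2-206 took 7.80%, 16.8% and 19.2% of the TPM from 1, 2 and 2 counts, and Bach2-204 took 12.01% ± 0.81 from 4.76, 4.05 and 3.94 counts. Bach2-205 held 7.36% in replicate 1 from 0.970 counts and 0 in the others, and the short Bach2-203 took 9.33% ± 8.15.

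Zeb1 had the smallest complete coding share of the 8. Zeb1-201 of 1117 codons held 25.1%, 26.4% and 27.5% of the Zeb1 TPM, although it took 446, 443 and 275 of the 804, 765 and 482 counts. The retained-intron model Zeb1-204 held 33.3% ± 4.03 (SD, n = 3), and 3 models annotated for nonsense-mediated decay held 25.84%, 31.36% and 6.58% together in the main table and 21.85%, 34.93% and 17.44% in the second. Of these, Zeb1-206 held 17.7%, 22.8% and 6.58% in the main table and 4.07%, 10.06% and 8.64% in the second, so which library was lowest depended on the table, and Zeb1-212 rested on 1, 1 and 0 counts. Among the noncoding models, Zeb1-203 held 4.87%, 5.90% and 13.3%. TPM divides by length, so a short model takes a larger share of the TPM than of the counts.

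**Figure D4:**
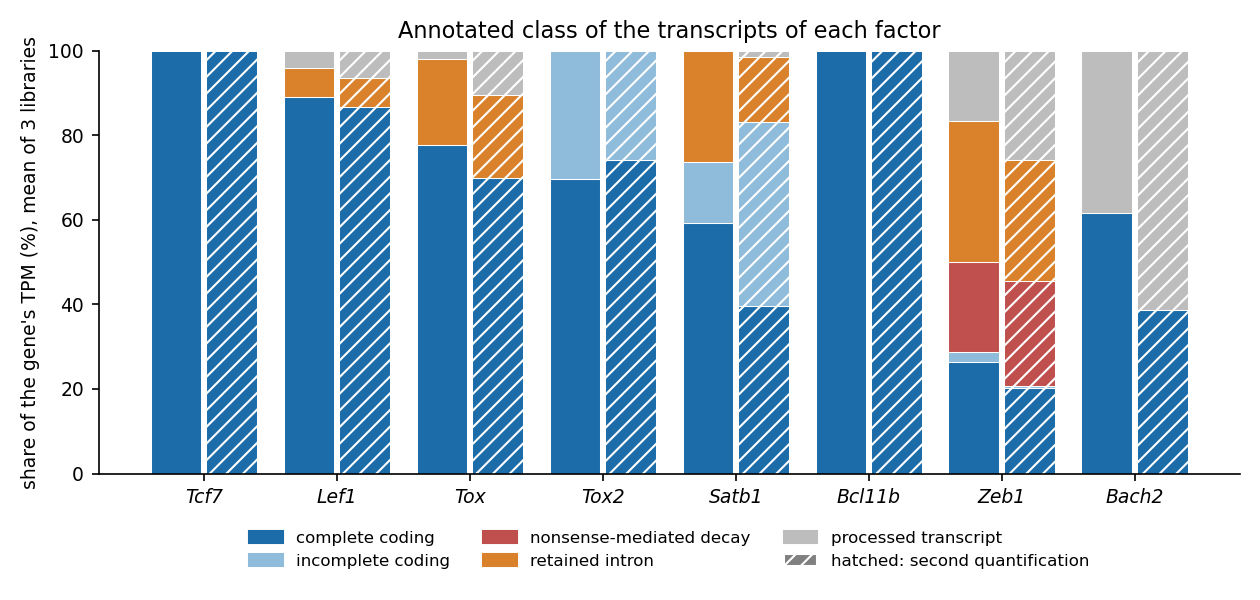
Mean share of each factor's TPM over the 3 libraries (y axis, percent) by the annotated class of its transcripts, with the main table in plain bars and the second quantification in hatched bars. Tcf7 and Bcl11b have no other annotated class, Satb1 and Bach2 have lower complete coding shares in the second quantification, and Zeb1 is lowest in both.

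Partners of these factors were largely present. For comparison with the counts below, 65.4% of all genes tested varied against sampling noise and 1.08% with the trended dispersion of edgeR. Of 16 TCF/LEF partners, 11 were detected, 7 of these varied against sampling noise and 0 with the trended dispersion of edgeR, where 0 also had an unadjusted p below 0.05. The highest was Aes, a truncated Groucho-type corepressor, at 98.5, 103.3 and 105.4 TPM, and the lowest Pygo1, a beta-catenin cofactor, at 0.0100, 0 and 0 TPM. Of the 4 genes around Bach2, 3 were detected, 2 of these varied against sampling noise, and with the trended dispersion of edgeR 0 did so, adjusted or unadjusted. Prdm1, which encodes Blimp-1, a factor whose gene Bach2 is known to repress in B cells, was the highest at 11.6, 21.5 and 20.9 TPM, and Maff was the lowest at 1.48, 0.980 and 2.06 TPM. All Prdm1 libraries were above all Bach2 libraries, the nearest being 11.6 against 11.5 TPM.

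All 15 corepressor partners of Bcl11b, Satb1 and Zeb1 were detected. The histone chaperone gene Rbbp4 was the highest at 242.3, 245.2 and 244.2 TPM and Ctbp2 the lowest at 1.23, 3.43 and 4.49 TPM. Of the 15, 13 varied against sampling noise, where 65.4% of all genes tested did. With the trended dispersion of edgeR 0 of the 15 varied, adjusted or unadjusted, where 1.08% of all genes tested passed after adjustment.

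The 12 other resting or naive T cell genes included 11 that were detected. Dapl1 was the lowest at 8.78, 7.45 and 0.900 TPM. All 12 varied against sampling noise, where 65.4% of all genes tested did, and 2 with the trended dispersion, where 1.08% did. Il7r, the receptor subunit for the survival cytokine IL-7, stood at 92.8, 147.6 and 336.6 TPM, highest in replicate 3 as Satb1 was. Its adjusted p was 0.00671 in the chi-square test with the trended dispersion. Id3, an inhibitor of E proteins, stood at 278.2, 222.6 and 76.0 TPM, lowest in replicate 3 as Tcf7 and Tox were. Its adjusted p was 0.0292 in the same test. Among the regulatory T cell markers, Ctla4, an inhibitory receptor, stood at 190.2, 249.6 and 612.0 TPM, with an adjusted p of 0.00505 in that chi-square test.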

How the data were processed

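The authors deposited gene and transcript tables on M21 models and mm10 with expected counts, TPM, the percent of a gene's TPM per transcript and, as signal values, credibility bounds and posterior SDs, per the file headers. A second deposited table holds estimated (expected) counts and TPM per transcript, and a further deposited table holds whole gene counts on M4. No label or header names the programs. Members and gene lists were chosen with earlier results of these data known.

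Symbols came from field 6 of the transcript identifiers. The 26345 entries that are no mouse gene, 0.087% to 0.166% of counts, were left out. M4 counts were divided by M21 coding bases for 22195 matched genes. Expected counts were rounded, and the 12997 genes averaging 10 or more were tested between the 3 libraries with chi-square (2 degrees of freedom, TMM library sizes from edgeR 4.0.16 in R 4.3.3) and Benjamini-Hochberg adjustment. The stricter model was the same chi-square test with the edgeR trended dispersion, estimated from the same libraries, added to the variance. DESeq2 1.42.0 size factors, other scalings, tables and libraries were alternatives. The test was tried on simulated counts. A count of 0 allowed 3 counts, or a CPM of 0.273 to 0.45. Intervals cover counting error only. Named were all members and relatives, the highest and lowest of each partner or resting gene list, those varying with the trended dispersion, and transcripts with a mean share of at least 10% in either table or defining a form. A few genes that this rule would name are not reported here. Transcripts, inner genes and markers beyond this rule were chosen after their values were seen. Computation used Python 3.11.15, pandas 2.3.3, numpy 2.4.6, scipy 1.17.1 and matplotlib 3.10.9.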

Additional observations from a re-analysis of the deposited data

How the results depend on the processing

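Apart from leaving out libraries, 57 values were recomputed for 19 results. Of these, 22 stayed within the spread between libraries or within 1.5 times the count, and 35 did not. The number of members varying between libraries was 6, fell to 0 with the trended dispersion of edgeR, and was 5 to 6 when a library was left out. It was 6 with DESeq2 or total-count scaling and without a filter, 5 in the second quantification and 7 in the M4 counts. Of all genes tested, 65.4% varied in the main setting, 1.08% with the trended dispersion and 32.2% to 53.6% with a library left out. The share was 65.4% with DESeq2 scaling, 65.3% with total-count scaling and 32.4% without a filter. It was 60.2% in the second quantification and 72.4% in the M4 counts. The cause of the other shifts was not tested. In TPM, the second quantification gave Tcf7 115.9, Lef1 91.1, Tox 59.0, Tox2 4.44, Bcl11b 13.8 and Zeb1 23.2, and a list median of 4.95 on the log2 scale. M4 counts per coding base gave Lef1 189.5, Bach2 11.6, Tox 224.9, Tox2 4.93, Bcl11b 17.2 and Zeb1 25.0. Over protein-coding nuclear genes alone, a smaller total by construction, the values were Tcf7 261.1, Lef1 197.3, Bach2 12.7, Tox 134.5, Tox2 10.9, Bcl11b 30.3 and Zeb1 44.8. Posterior mean TPM was 130.8 for Lef1, 89.9 for Tox and 19.98 for Bcl11b. For Tcf7 it was 171.1, which stayed within the spread between libraries. Main TPM lay above the deposited credibility bounds in every library for Tcf7, Lef1, Tox, Satb1 and Bcl11b. For Zeb1 it did so only in replicate 2, and for Bach2 and Tox2 in no library.

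For shares, the second quantification gave 97.2% for Tcf7-201, 77.7% for Lef1-203, 32.4% for the 764-codon Satb1 protein, 28.7% for the 839-codon Bach2 protein, 69.9% for Tox-201 and 20.2% for Zeb1-201. Posterior mean shares were 79.3% for Lef1-203, 51.2% for the Satb1 protein, 30.5% for the Bach2 protein, 61.5% for Tox2-202 and 23.4% for Zeb1-201. Leaving out 1 of 3 libraries cannot move a mean by a full SD, so it says nothing of the stability of levels and shares. No paired analysis between groups was possible because the 3 libraries form 1 group. Depth limited Tox2 most, at 108 to 170 counts.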
